A study of Mus musculus with 2 samples.

Results

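Integrins are the cell-surface receptors that hold cartilage cells to their matrix, and the transcripts of 10 integrin genes were followed in superficial zone (SFZ) cells, the flattened chondrocytes at the joint surface. The genes were chosen by symbol, as the integrins known from cartilage cells, and all 10 were found among the 15719 genes with a value in the wild-type library. They comprise 8 alpha genes (Itga1, Itga2, Itga3, Itga5, Itga6, Itga10, Itga11 and Itgav) and 2 beta genes (Itgb1 and Itgb5). The Prg4KO library was made from SFZ cells of C57BL/6 mice lacking Prg4, the gene of the joint lubricant lubricin, and the WT library from wild-type C57BL/6 mice, in both cases on postnatal day 5. In both groups the cells came from the ends of the femur and the upper end of the tibia by digestion with trypsin and collagenase and were seeded on fibronectin, itself an integrin ligand. Polyadenylated RNA was sequenced. How the knockout allele was built, how many mice were pooled and how long the cells were cultured is not stated in the labels.

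Each integrin is a pair of an alpha and a beta chain. The alpha chain largely sets what the receptor binds: Itga1, Itga2, Itga10 and Itga11 encode the collagen receptors, Itga3 and Itga6 laminin receptors, and Itga5 and Itgav receptors for proteins with an arginine-glycine-aspartate (RGD) sequence, such as fibronectin and vitronectin. The product of Itgb1 pairs with all of these alpha chains, whereas that of Itgb5 pairs with the alpha-v chain. In cartilage, integrins anchor chondrocytes to type II collagen and fibronectin and pass signals through talin, kindlin and the kinases bound to their tails.

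With 1 library per genotype, nothing could be tested between genotypes and no difference has a replicate check. The intervals cover counting error only, and reads from PCR copies are not independent molecules. The libraries held 21392574 expected counts (Prg4KO) and 21619093 (WT), an expected count being the estimated number of reads of a gene. Levels are in FPKM, fragments per kilobase of transcript scaled to library depth, so they can be compared between genes. The deposited Prg4KO values stood beside the wrong gene names after row 20, and each Prg4KO value below rests on a re-pairing of rows by order and transcript length. The probability of the pair was at least 0.999999 for the 10 integrin genes. Between 6 and 10 of the 10 nearest rows of each were in the same register, and effective lengths differed between libraries by at most 0.151% for the 6 integrin genes with 1 transcript. Prg4 itself had 6.15 counts in the Prg4KO library (95% Poisson interval 2.29 to 13.3) and 54559 in the WT library. The chondrocyte genes Col2a1 (15702 FPKM in Prg4KO, 14594 in WT), Acan (436 and 527) and Sox9 (168 and 150) were well detected in both libraries. Of 8 superficial zone markers, Prg4 included, all had counts in the WT library, such as Thbs4 (169 FPKM in Prg4KO, 267 in WT), Clu (135 and 175) and Erg (12.6 and 9.78). Of the 7 above 5 FPKM, 6 lay below the all-gene median described below, among them Prg4, which is low by genotype.

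Transcripts of the fibronectin receptor chains Itga5 and Itgb1 were the most abundant integrin transcripts in both libraries. The lowest was Itga2. In the Prg4KO library the FPKM order was Itga5 (132), Itgb1 (84.6), Itgb5 (43.2), Itga10 (28.3), Itga6 (10.04), Itga11 (9.25), Itgav (8.84), Itga3 (7.97), Itga1 (4.29) and Itga2 (0.70). In the WT library it was Itga5 (137), Itgb1 (74.7), Itgb5 (55.2), Itga10 (26.0), Itga11 (15.6), Itga6 (8.23), Itgav (7.73), Itga3 (6.73), Itga1 (3.39) and Itga2 (1.05). The order was thus the same but for Itga11, whose FPKM in the Prg4KO library was just below that of Itga6 with overlapping intervals, and in the WT library was 1.9 times that of Itga6 with intervals apart. Counting intervals of neighbours overlapped for Itga6 and Itga11, Itga11 and Itgav, and Itgav and Itga3 in the Prg4KO library, and for Itga6 and Itgav in the WT library.

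**Figure D1:**
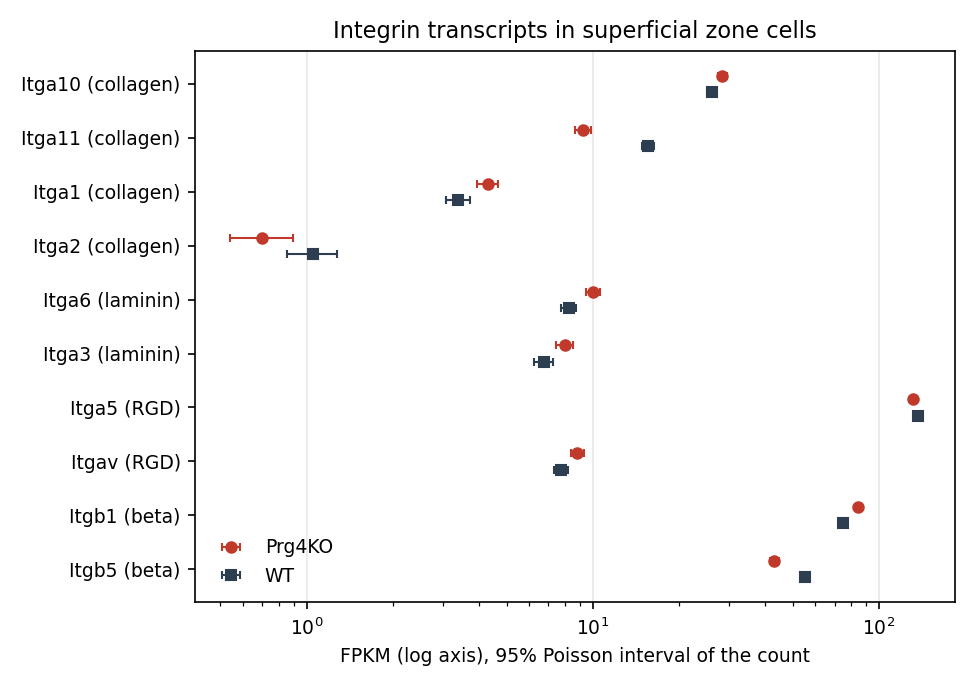
FPKM (log axis) of the 10 integrin genes in the Prg4KO library (red circles) and the WT library (dark squares), with 95% Poisson intervals of the counts and the ligand class in brackets. Itga5 is at 132 and 137 FPKM and Itga2 at 0.70 and 1.05, and Itga11 shows the widest gap among genes above 5 FPKM, with 9.25 in Prg4KO and 15.6 in WT.

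Between genotypes, Itga11 was the farthest apart of the integrin genes by log2 ratio. None of the 10 was past a factor of 2 (a log2 ratio of FPKM + 1 of at least 1 either way, with the larger FPKM at least 5), a limit that 0.57% of 7365 genes passed. Itga1 and Itga2 could not pass it, being under 5 FPKM in both libraries. The log2 ratio of Prg4KO over WT was above 0 for 6 integrin genes and below 0 for 4, against 68% of 6697 genes above 0 and 31.9% below. The median was 0.15 over the 10 integrin genes and 0.13 over those 6697 genes, and 5 of the 10 lay above this all-gene median, against 50% of all genes. These shares are near the background and say nothing particular of the integrins, whose log2 ratios relative to the all-gene median ran from -0.83 for Itga11, -0.48 for Itgb5 and -0.40 for Itga2 up to 0.14 for Itga1.

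**Figure D2:**
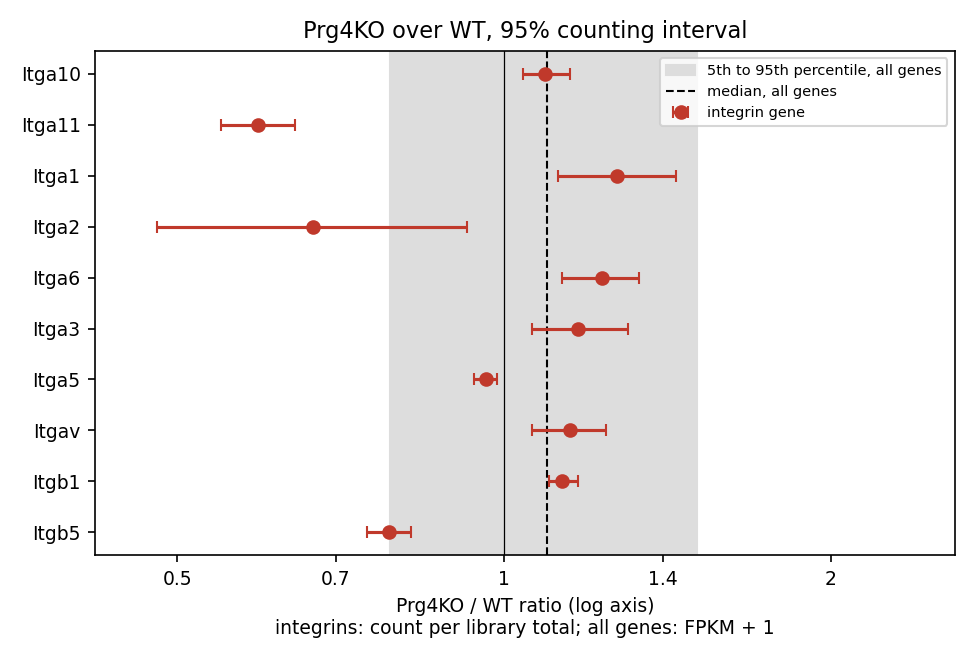
Ratio of Prg4KO to WT (log axis) for each integrin gene, as counts per library total with 95% exact binomial intervals (points and bars). The dashed line is the median and the grey band the 5th to 95th percentile of the ratio of FPKM + 1 over 6697 genes. Itga11 (0.593), Itga2 (0.667) and Itgb5 (0.783) are the lowest points. The points lack the added 1, so genes of low FPKM cannot be read against the band. On the scale of the band Itga2 had a log2 ratio of -0.27, with 8.1% of genes lower.

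Among the collagen receptors, Itga11 was lower in the Prg4KO library while Itga10 was close to the all-gene median. Itga10 (chromosome 3, 96645584 to 96664519 in GRCm38, plus strand) encodes the alpha chain of the main type II collagen receptor of chondrocytes. It had 3087 counts in Prg4KO (2979 to 3198) and 2860 in WT (2756 to 2967), or 28.3 and 26.0 FPKM. Its count ratio per library total was 1.09 (1.04 to 1.15), and its log2 ratio of 0.12 lay at -0.02 relative to all genes, although with the length and GC trend described below removed it was 0.32, above 79.5% of genes. The 8 chondrocyte markers summed to 20380 FPKM in Prg4KO and 18220 in WT, most of it Col2a1 (15702 and 14594). Of the 8, 6 lay above the all-gene median and 2 below. Matn3 was past a factor of 2 higher (log2 ratio 1.16), as were 0.462% of genes, whereas Acan was at -0.28. The part of these markers in the Itga10 value was not tested. Itga10 shares 1739 exonic bases with Gm42957 on its strand, so part of its reads is uncertain.

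Itga11 (chromosome 9, 62677826 to 62783982, plus strand) encodes the alpha chain of a receptor for type I collagen found on fibroblasts and mesenchymal cells. It had 987 counts in Prg4KO (926 to 1050) and 1682 in WT (1603 to 1764), or 9.25 and 15.6 FPKM. The count ratio was 0.593 (0.548 to 0.642), the log2 ratio -0.70, and 0.6% of 6697 genes had a lower one. Log2 ratios across genes went with transcript length and GC content (Spearman's rho -0.31 and -0.35, across genes, which are not independent), and once that trend was taken out Itga11 stood at a log2 ratio of -0.46, below which lay 1.6% of genes.

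The balance of the 2 main collagen receptor genes does not depend on how the libraries are scaled. Itga10 stood at 3.06 times the FPKM of Itga11 in the Prg4KO library and at 1.66 times in the WT library. The count ratio of Itga10 to Itga11 was 1.84 times higher in Prg4KO than in WT (1.67 to 2.02, counting error only). Of the summed FPKM of the 4 collagen-receptor alpha genes, Itga10 held 66.5% in Prg4KO and 56.5% in WT, and Itga11 21.7% and 33.9%.

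Itga1 and Itga2, the remaining collagen receptor genes, were low and lay on opposite sides of a ratio of 1. They are neighbours on the minus strand of chromosome 13 (114953096 to 115101964 and 114833081 to 114932100), and Pelo lies inside Itga1 with 0 shared exonic bases, whereas Gm49395 shares 685 exonic bases with Itga1 on its strand. Itga1, whose product binds type IV and other collagens, had 556 counts in Prg4KO (511 to 604) and 443 in WT (403 to 486), with a count ratio of 1.27 (1.12 to 1.44). Itga2, whose product is the collagen receptor of platelets and epithelia, had 64 counts in Prg4KO (49.3 to 81.7) and 97 in WT (78.7 to 118), with a count ratio of 0.667 (0.479 to 0.924). At these depths the size of the Itga2 ratio is loosely fixed, and its log2 ratio ran from -0.52 to -0.09 as the pseudocount went between 0.1 and 5.

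Cells of fibrous tissue are a known source of type I collagen and Itga11, and their markers lay low relative to all genes in the same library. Of 8 tendon and fibroblast markers 7 were above the FPKM limit, and none of these lay above the all-gene median. The markers summed to 6831 FPKM in Prg4KO and 12830 in WT, most of it Col1a1 (5593 and 11470), the main chain of type I collagen. Scx, the tendon transcription factor, had 15.0 and 21.2 FPKM, but Tnmd, a tendon membrane protein, had 314 and 321, and Thy1, a fibroblast surface protein, 22.6 and 23.7. None was at 0 in either library. The part of these cells in the Itga11 value was not tested, and fewer cells of a type cannot be told apart from less RNA per cell in bulk samples.

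Promoters are shown for Itga10 and Itga11, the 2 main collagen receptor genes, whose balance differed between genotypes, and for Itgb5, the next lowest integrin gene above 5 FPKM. Each runs from 250 bases before to 50 after the start in RefSeq (GRCm38.p6), and 9 of the 10 integrin genes were matched by symbol in the promoter table used, Itga6 not being among them. Capitals mark the GC box (GGGCGG, the core bound by Sp1) and the core bound by TEAD factors (GGAATG) on either strand.
Itga10 promoter, chr3:96645334-96645633, plus strand: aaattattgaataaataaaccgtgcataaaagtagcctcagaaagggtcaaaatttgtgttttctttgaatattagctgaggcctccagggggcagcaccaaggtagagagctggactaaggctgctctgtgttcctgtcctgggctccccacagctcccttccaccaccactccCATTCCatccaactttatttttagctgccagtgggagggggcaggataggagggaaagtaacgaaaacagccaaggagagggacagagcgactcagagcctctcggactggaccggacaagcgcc
Itga11 promoter, chr9:62677605-62677904, plus strand: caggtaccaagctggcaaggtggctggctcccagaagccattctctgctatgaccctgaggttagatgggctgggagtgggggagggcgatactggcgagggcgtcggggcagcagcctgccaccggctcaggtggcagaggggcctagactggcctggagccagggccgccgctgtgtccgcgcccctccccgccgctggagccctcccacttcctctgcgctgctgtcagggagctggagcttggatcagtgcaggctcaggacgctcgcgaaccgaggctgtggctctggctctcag
Itgb5 promoter, chr16:33829415-33829714, plus strand: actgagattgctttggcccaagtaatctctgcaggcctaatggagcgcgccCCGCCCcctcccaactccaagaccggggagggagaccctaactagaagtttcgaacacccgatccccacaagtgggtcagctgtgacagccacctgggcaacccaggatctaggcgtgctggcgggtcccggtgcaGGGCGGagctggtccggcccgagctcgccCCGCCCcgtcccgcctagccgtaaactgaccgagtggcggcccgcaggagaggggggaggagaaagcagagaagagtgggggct
The Itgb5 promoter held 3 GC boxes, and the Itga10 and Itga11 promoters held none, against 35.7% of all 32851 promoters with at least 1. The Itga10 promoter held 1 TEAD core, as did 14.7% of all promoters. None of the 3 held a TATA box (TATAAA, in 13.6% of promoters) or an AP-1 site (TGANTCA, in 7.8%). GC content was 51.0% for Itga10, 68.0% for Itga11 and 65.7% for Itgb5, with a median of 52.7% over all promoters. These matches describe the sequence only, and no binding was measured.

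The laminin receptor genes were both slightly higher in the Prg4KO library, near the all-gene shift. Itga6 (chromosome 2, 71745616 to 71858416, plus strand) encodes the alpha chain of a laminin receptor also used as a marker of progenitor cells. It had 1296 counts in Prg4KO (1226 to 1369) and 1066 in WT (1003 to 1132), with a count ratio of 1.23 (1.13 to 1.33) and a log2 ratio of 0.26. Itga3 (chromosome 11, 95044474 to 95076801, minus strand), whose product binds laminins of basement membranes, had 826 (771 to 884) and 713 (662 to 767), with a count ratio of 1.17 (1.06 to 1.30) and a log2 ratio of 0.21. Relative to all genes these were 0.12 and 0.08, within the middle of the distribution. After removal of the length and GC trend, Itga3 stood higher, at a log2 ratio of 0.50 above 94.2% of genes, and Itga6 at 0.37 above 85.5%.

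Both laminin receptor genes have several transcripts, and their mean effective length was not the same in the 2 libraries. It was 1.31% shorter for Itga3 and 0.545% longer for Itga6 in the Prg4KO library than in the WT library, beyond the 0.137% and 0.111% that rounding of FPKM allows. For Itga5 and Itgb5, which also have several transcripts, it differed by 0.00939% and 0.0122%. The files do not give the separate transcripts, so the isoforms behind these shifts were not identified here.

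Itga6 and its epithelial partner chain Itgb4 are also genes of epithelia. Itgb4 had 288 counts in Prg4KO and 226 in WT, at 2.20 and 1.71 FPKM. The 5 paired of 6 epithelial markers summed to 12.4 FPKM in Prg4KO and 7.44 in WT, with Epcam, an epithelial adhesion molecule, at 5.94 and 3.67, Krt8 at 1.56 and 0.59 and Cdh1, which encodes E-cadherin, at 0.17 and 0.21. Their part in the Itga6 value was not tested. The 8 endothelial markers, another source of Itga6, summed to 91.1 and 93.0 FPKM.

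Itga5 was close in level between the libraries. The gene (chromosome 15, 103344286 to 103366763, minus strand) encodes the alpha chain of the classical fibronectin receptor. It ranked 488 of 15973 values by FPKM in the Prg4KO library and 450 of 15719 in the WT library. It had 12625 counts in Prg4KO (12410 to 12850) and 13269 in WT (13040 to 13500), with a count ratio of 0.962 (0.938 to 0.985). The log2 ratio of -0.06 was at -0.19 relative to all genes. After removal of the length and GC trend it was 0.20, or 0.06 relative to all genes, so its direction depends on that step.

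Itgav (chromosome 2, 83724397 to 83806916, plus strand) encodes the alpha-v chain, which binds vitronectin and, with some beta chains, latent TGF-beta. It had 1350 counts in Prg4KO (1279 to 1424) and 1191 in WT (1124 to 1261), with a count ratio of 1.15 (1.06 to 1.24). Its log2 ratio of 0.17 was 0.04 relative to all genes. The gene shares 634 exonic bases with Gm13684 on the opposite strand, and since strand use in counting is not given here, reads of that stretch cannot be assigned.

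Of the summed FPKM of the 8 alpha genes (201 in Prg4KO, 206 in WT), Itga5 held 65.5% in Prg4KO and 66.6% in WT. Itga10 held 14.1% and 12.6%, and Itga11 4.6% and 7.59%. By ligand class, RGD receptors held 69.9% and 70.4%, collagen receptors 21.2% and 22.4%, and laminin receptors 8.96% and 7.26%. The RGD and collagen shares were thus alike in the 2 libraries, and the small laminin share was somewhat higher in Prg4KO. Inside the collagen class, Itga10 held more and Itga11 less of the alpha pool in Prg4KO.

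**Figure D3:**
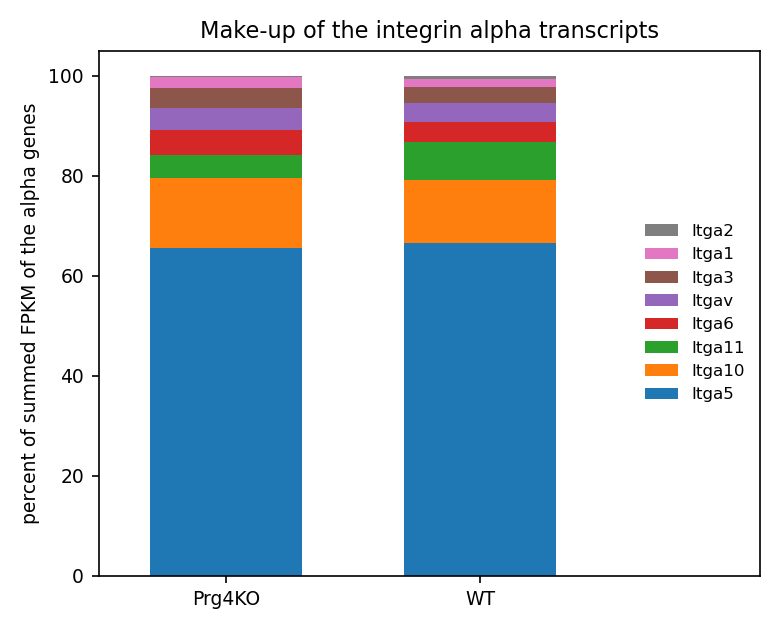
Percent of the summed FPKM of the 8 integrin alpha genes held by each gene in the Prg4KO library (left bar) and the WT library (right bar). Itga5 fills 65.5% and 66.6%, while the Itga11 segment is 4.6% in Prg4KO and 7.59% in WT.

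Of the beta genes, Itgb5 was lower in the Prg4KO library, and Itgb1 lay close to the all-gene median. Itgb1 (chromosome 8, 128685654 to 128733200, plus strand), the beta chain common to the collagen, laminin and fibronectin receptors, had 7655 counts in Prg4KO (7484 to 7828) and 6824 in WT (6663 to 6988). Its count ratio was 1.13 (1.10 to 1.17) and its log2 ratio 0.18, or 0.04 relative to all genes, and -0.01 relative to them once the trend was removed. Itgb5 (chromosome 16, 33829665 to 33949338, plus strand), the partner of alpha-v in the vitronectin receptor, had 3070 counts in Prg4KO (2962 to 3181) and 3963 in WT (3841 to 4088).

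The count ratio of Itgb5 was 0.783 (0.747 to 0.821), its log2 ratio -0.35, and 5.1% of genes had a lower one. After removal of the length and GC trend the log2 ratio was -0.17, with 10.8% of genes lower. The count ratio of Itgb1 to Itgb5, free of the library scaling, was 1.45 times higher in Prg4KO than in WT (1.37 to 1.53), with FPKM ratios of 1.96 in Prg4KO and 1.35 in WT. This ratio is not free of the length and GC trend. Transcript GC content was 44.8% for Itgb1 and 57.3% for Itgb5. With the trend removed the log2 ratios of the 2 genes lay closer together, at 0.13 and -0.17. Itgb5 exceeded its partner Itgav 4.88-fold in Prg4KO and 7.14-fold in WT by FPKM. The 7 alpha genes other than Itgav summed to 2.27 times the FPKM of Itgb1 in Prg4KO and 2.65 times in WT.

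Other integrin subunits were scarce. Of 16 listed, 13 had a WT value, and only Itga9, whose product binds tenascin C and other ligands, reached 5 FPKM, with 692 counts in Prg4KO and 853 in WT (4.93 and 5.90 FPKM, count ratio 0.820, 0.741 to 0.907). Itga7 and Itgb3 had 2.76 and 1.67 FPKM in Prg4KO and 2.59 and 1.49 in WT. The leukocyte chains were near the floor: Itgb2 had 85 counts in Prg4KO and 63 in WT, Itgam 81 and 58, Itgal 29 and 11, and Itgax 13.4 and 3, which gives a count ratio of 4.38 with an interval of 1.20 to 24.0. The 10 macrophage and osteoclast markers summed to 291 FPKM in Prg4KO and 208 in WT. Of the 6 above 5 FPKM, 5 lay above the all-gene median and 1 below. Much of the difference in the sum was Mmp9 (56.94 and 14.14) and Acp5 (32.32 and 10.15). Both were past a factor of 2 higher, as were 0.462% of genes. Csf1r had 8.62 and 6.57, Cd68 25.58 and 21.08, and Ctsk 143.31 and 140.19. Ptprc, which marks all leukocytes, had 0.53 and 0.28. The part of these cells in the leukocyte chains was not tested. Itgad, Itgae and Itgb6 had no row with a WT value.

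Adaptors that link integrin tails to actin were mostly detected, with none past a factor of 2. Of 25 listed, 21 had a larger FPKM of at least 5, and 6 of these lay above the all-gene median and 15 below. Their median log2 ratio was -0.02, or -0.16 relative to all genes. After removal of the length and GC trend it was 0.15, close to the 0.14 of all genes after that removal. Highest were Lims2 and Lims1, the PINCH adaptors that bind integrin-linked kinase, with 14.5 and 11.99 FPKM in Prg4KO and 9.97 and 8.53 in WT (log2 ratios 0.50 and 0.45). Lowest were Tns1 (16.8 in Prg4KO, 21.9 in WT, log2 ratio -0.36), a tensin of mature adhesions, and Actn1 (49.9 and 63.9, -0.35), an actin crosslinker. With the trend removed Tns1 was at 0.07 and Actn1 at -0.24. The most abundant were Actn4 (191 and 193) and Ilk, the integrin-linked kinase gene (109 and 101).

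Among inhibitors and membrane partners of integrins, 10 of 17 lay above the all-gene median and none was past a factor of 2. Their median log2 ratio was 0.16, close to the 0.13 of all genes. Dok1, an adaptor that competes with talin for beta tails, was highest, with 34.2 FPKM in Prg4KO and 20.9 in WT (1328 and 817 counts, ratio 1.64, 1.50 to 1.79). Cd47, a partner of the beta-3 integrin, had 12.9 and 9.10 (log2 ratio 0.46). Lowest were the tetraspanin Cd81, with 163 and 202 (-0.31), and Slc3a2, the CD98 heavy chain that binds beta tails, with 289 and 311 (-0.10). The tetraspanins Cd9 (823 and 691) and Cd63 (564 and 475) were the most abundant.

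Ligand log2 ratios spanned -1.04 to 1.09, against -0.70 to 0.27 for the 10 integrin genes. The ligand lists together held more genes, and a range widens with the number of genes. Of 13 collagen genes, 3 lay above the all-gene median and 10 below, with a median log2 ratio of -0.53. After removal of the length and GC trend it was -0.09, still below the 0.14 of all genes after that removal. Col1a1 was past a factor of 2 lower (log2 ratio -1.04, a direction in which 0.109% of genes passed), though not with the trend removed (-0.66), and Col5a1, which nucleates type I fibrils, had 148 FPKM in Prg4KO and 260 in WT (-0.81). Col9a1 and Col10a1, collagens of cartilage, were highest, with 1115 and 301 in Prg4KO and 709 and 241 in WT.

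Of 17 RGD and related ligands above the limit, 6 lay above the all-gene median and 11 below. Their median log2 ratio was -0.08. After removal of the length and GC trend it was 0.01, beside 0.14 over all genes after that removal. Spp1, which encodes osteopontin, a ligand of alpha-v integrins, was past a factor of 2 higher, as were 0.462% of genes, with 304 FPKM in Prg4KO and 142 in WT (log2 ratio 1.09). It no longer passed at a common median, with TMM or DESeq2 factors, without the 20 most abundant genes or with the trend removed (0.86). Ibsp, the bone sialoprotein gene, had 12.2 and 6.10 (0.90), whereas Tnc, the tenascin C gene, had 59.6 and 104 (-0.79) and Fbn1, the fibrillin-1 gene, 7.94 and 13.2 (-0.66). Mfge8 and Cyr61, whose products bind alpha-v integrins, were the most abundant, at 674 and 719 in Prg4KO and 573 and 715 in WT. Fibronectin itself (Fn1), chosen here as the ligand of Itga5 and the coating of the dishes, had 270 and 384. Its log2 ratio was -0.5, and -0.19 with the trend removed.

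The laminin and basement membrane ligands lay below the all-gene median in all 6 of the 12 listed that reached 5 FPKM. Their median log2 ratio was -0.30. After removal of the length and GC trend it was -0.03, beside 0.14 over all genes after that removal. Hspg2, the perlecan gene, had 72.7 FPKM in Prg4KO and 126 in WT (-0.78), and with the trend removed its log2 ratio was -0.13. Lamb1 had 8.98 and 12.3 (-0.41), and Lama4 and Nid1 had 23.2 and 29.8 in Prg4KO and 26.3 and 34.0 in WT. Itga3 and Itga6, the receptors for laminins, had ratios above 0, and their ligands had ratios below 0.

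**Figure D4:**
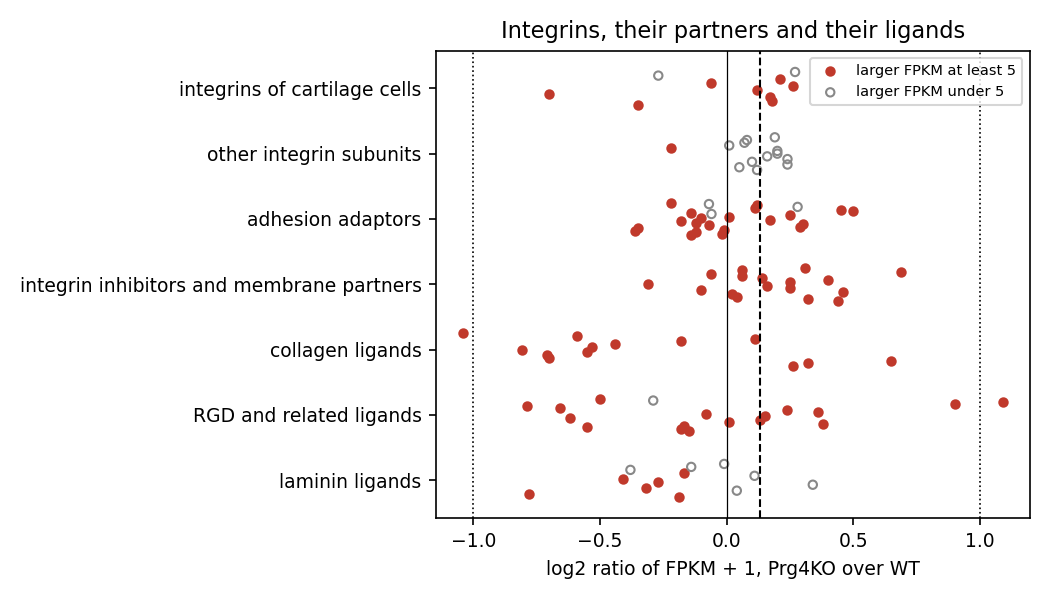
Log2 ratio of FPKM + 1, Prg4KO over WT, for each paired gene of 7 lists, filled where the larger FPKM is at least 5. The dashed line is the all-gene median (0.13) and the dotted lines a factor of 2, which Col1a1 (-1.04) and Spp1 (1.09) passed and no integrin gene did.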

How the data were processed

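Superficial zone cells were profiled by polyA RNA-seq, with 1 Prg4KO and 1 WT library. Per the file headers, the deposited values were expected counts (not normalized) and FPKM, scaled by the authors for effective length and depth, beside a transcript length in bases. RSEM, HISAT2, Bowtie2 and the build mm10 appear in the submitters' processing notes, without versions or roles. Strand use is not given in the sources used here.

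Log2 FPKM correlated between libraries at 0.96 over the first 20 rows and at 0.0841 over the later ones, so Prg4KO rows were re-paired with genes. A pair hidden Markov model (numba 0.67.0) used gene order and effective length (count divided by FPKM). Rows could lack a partner with a probability of 0.002 plus 0.4 at a count near 0. Pairs with a probability of at least 0.95 were used, 14761 of 15719 genes, 6838 of them at 5 FPKM or more in WT. After pairing, log2 FPKM correlated at 0.981 across genes. The model was tested on simulated data.

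Count ratios are per library total, with exact binomial intervals, and counts carry exact Poisson intervals (95%, scipy 1.17.1). The length and GC trend was a loess fit in R 4.3.3, with GC content from GENCODE M21 transcripts, which also gave the coordinates (GRCm38). Alternatives included TMM (edgeR 4.0.16) and DESeq2 1.42.0 size factors. No test was run. Named genes were all 10 integrins and a choice from each list of other integrins, partners, ligands and matrix receptors. Per list these were the 2 highest and 2 lowest log2 ratios, the 2 highest WT levels and genes past a factor of 2. Others were named for their role, and the cell type markers did not follow this rule. Genes and lists were chosen with earlier results of these data known.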

Additional observations from a re-analysis of the deposited data

How the results depend on the processing

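No paired analysis was possible because each genotype had 1 library, and for the same reason no library could be left out. None of the 10 integrin genes was past a factor of 2 under the 9 alternatives tried for it. Between 5 and 6 of them lay above the all-gene median, and their median log2 ratio relative to all genes was at most 0.05 from 0. The median log2 ratio of all genes was 0.13 as deposited, 0.01 at a common median, -0.01 with TMM factors, -0.02 with DESeq2 size factors and 0.05 without the 20 most abundant genes. With the length and GC trend removed it was 0.14. Itga10 turned sign at a common median and with TMM and DESeq2 factors (-0.02, -0.04 and -0.05), and Itga5 after trend removal (0.20). Itga11 stayed below 0 throughout, from -0.85 with TMM and DESeq2 factors to -0.46 after trend removal. RGD ligands past a factor of 2 higher fell to 0 at a common median, with TMM or DESeq2 factors, without the 20 most abundant genes and after trend removal, which also left 0 collagen genes past it lower. With all listed alpha genes in the pool, Itga5 held 62.1% in Prg4KO and 63.2% in WT, Itga10 13.4% and 12%, and Itga11 7.2% in WT. Itga2, at 64 and 97 counts, is limited by depth. The spread between cultures is unknown.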

Other observations

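Matrix receptors that are not integrins were also read, from a list of 9 chosen after the data had been seen. All 9 had a larger FPKM of at least 5 and lay below the all-gene median, with log2 ratios from -0.60 to 0.12 and a median of -0.16. Lrp1, a scavenger receptor that takes up integrins and matrix proteins, was lowest, with 25.1 FPKM in Prg4KO and 38.6 in WT (8127 and 12609 counts, ratio 0.651, 0.633 to 0.670). Dag1, the dystroglycan gene, had 22.7 and 31.4 (log2 ratio -0.45). Ddr2, a receptor tyrosine kinase for fibrillar collagen, had 12.5 and 11.8 (0.07), and the syndecan genes Sdc1 and Sdc3 had 79.2 and 86.5 in Prg4KO and 88.3 and 97.4 in WT. After removal of the length and GC trend, Lrp1 had a log2 ratio of -0.02 and the list median was -0.02, beside 0.14 over all genes. Bcam (0.3), Ddr1 (0.2), Ddr2 (0.15) and Sdc3 (0.15) then lay above that all-gene median and the others below it.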
